A study of Mus musculus with 8 samples.

Results

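Sost, Lgr6, Rspo3, Dkk2, Dkk3, Sfrp1, Sfrp2, Frzb, Wif1 and Axin2 are 10 genes that tune the Wnt pathway from outside the cell or report on its activity, and their RNA was followed in the mouse aorta through angiotensin II (AngII) treatment and after it. The 10 genes, of 35896 in the table, were chosen by name with results of these same libraries already known. The contrast of AngII against CTRL, where Lgr6 and Sost lay far from 0, was therefore counted as used in the choice, and the members' values in it are given as a description. All 10 had enough counts to enter the fit, which tested 17182 genes.

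The tissue was one piece of aorta from male C57BL6 mice, and each library pooled the tissue of 2 animals, so 8 libraries stood for 16 mice. AngII, a peptide that constricts vessels and raises blood pressure, was delivered at 2.8 mg/kg/d for 2 weeks by osmotic minipump to wild-type mice that were 11 weeks old at the start. The 4 groups of 2 libraries were CTRL (untreated, age-matched littermates), AngII (taken at the end of the infusion), AngII+2W (taken 2 weeks after it ended) and AngII+3W (taken 3 weeks after it ended), and no group carried a transgene or a deleted allele. At which of the ages the mice of each CTRL library were taken was not given in the sources used here.

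Wnt proteins are secreted signals that bind Frizzled receptors together with the co-receptor Lrp5 or Lrp6, which stops the destruction of beta-catenin and lets it switch on target genes. Secreted proteins hold the pathway back in different ways: sclerostin (Sost) and the Dickkopf protein Dkk2 bind Lrp5 and Lrp6, whereas the Sfrp proteins, Frzb and Wif1 bind Wnt itself. R-spondins such as Rspo3 act the other way through Lgr4, Lgr5 and Lgr6, by removing the ligases that clear Frizzled from the surface, and Axin2 is a target gene that feeds back to limit the signal.

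The start regions of 4 members are shown because these were the members whose mean levels lay farthest from CTRL at the end of the infusion. The set of RefSeq promoter windows used here held an entry for 7 of the 10 genes (Sost, Lgr6, Dkk2, Wif1, Sfrp2, Frzb and Axin2). Each entry covered 250 bases before and 50 after the start on build GRCm38.p6. In Sost and Lgr6 the capitals mark a C-rich run of 21 bases that both windows held on the sense strand, and in Dkk2 and Wif1 they mark the letters TATAAA, read on the opposite strand in Wif1.
Sost, chr11:101966966-101967265, reverse strand: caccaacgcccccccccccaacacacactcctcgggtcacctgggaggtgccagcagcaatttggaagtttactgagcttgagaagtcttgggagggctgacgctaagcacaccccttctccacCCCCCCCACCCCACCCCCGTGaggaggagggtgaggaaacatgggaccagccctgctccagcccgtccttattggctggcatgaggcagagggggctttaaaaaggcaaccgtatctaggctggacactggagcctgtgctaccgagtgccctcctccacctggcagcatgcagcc
Lgr6, chr1:135105227-135105526, reverse strand: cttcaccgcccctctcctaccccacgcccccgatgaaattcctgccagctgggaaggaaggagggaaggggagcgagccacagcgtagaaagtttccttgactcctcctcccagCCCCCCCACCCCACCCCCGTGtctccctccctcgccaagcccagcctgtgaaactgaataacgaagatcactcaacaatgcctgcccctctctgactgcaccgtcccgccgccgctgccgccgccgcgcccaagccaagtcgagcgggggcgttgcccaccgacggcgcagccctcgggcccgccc
Dkk2, chr3:132085042-132085341, forward strand: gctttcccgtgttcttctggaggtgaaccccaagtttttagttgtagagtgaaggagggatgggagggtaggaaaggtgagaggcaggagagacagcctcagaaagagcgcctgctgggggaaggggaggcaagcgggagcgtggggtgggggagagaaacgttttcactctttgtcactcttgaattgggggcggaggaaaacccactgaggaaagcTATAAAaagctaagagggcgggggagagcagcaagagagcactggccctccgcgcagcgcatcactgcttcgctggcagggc
Wif1, chr10:121033754-121034053, forward strand: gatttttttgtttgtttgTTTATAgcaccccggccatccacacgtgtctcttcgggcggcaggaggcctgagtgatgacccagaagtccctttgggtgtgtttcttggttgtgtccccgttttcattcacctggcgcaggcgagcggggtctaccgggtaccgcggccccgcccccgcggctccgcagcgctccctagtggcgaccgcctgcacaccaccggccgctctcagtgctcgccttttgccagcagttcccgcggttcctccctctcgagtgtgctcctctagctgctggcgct
The shared run lay at chr11:101967121-101967141 in Sost, from 126 to 106 bases before the start, and at chr1:135105392-135105412 in Lgr6, from 136 to 116 bases before it. Of 32851 promoter windows of this length, 2 held the run (0.00609%), and these were the windows of Sost and Lgr6. The other 20 pairs among the 7 windows shared runs of 8 to 13 bases. The run was noticed after the sequences had been read, and the match of letters is a description.

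The GC content of the 7 windows was 57.7% to 70.0%, against a median of 52.7% over all windows, and held 7 to 31 CpG pairs against a median of 7. Sites for TCF and LEF factors, searched on either strand as CTTTGAA or as CTTTGAT, and as CTTTGTA or as CTTTGTT, were found in 0 of 7, and 16.9% of all windows held them. The CArG box, the element that serum response factor binds in smooth muscle genes, was found in 0 of 7 against 1.63% of all windows. TATAAA was found in 2 of 7 against 13.6%, in Dkk2 on the sense strand and in Wif1 on the other.

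Library totals ran from 18130441 to 21498200 counts, so that a floor of 3 counts corresponded to 0.140 to 0.162 CPM, the unit of all levels here (counts scaled to a common library size with the TMM factors of edgeR). The AngII+3W replicate 1 library stood apart: its 6 skeletal muscle markers summed to 2356 CPM against 5.31 to 73.7 CPM in the other 7 libraries. Cardiac markers varied between groups, with sums of 3940 and 1775 CPM in the CTRL libraries and 1031 and 666 CPM under AngII. They summed to 148 and 15.2 CPM at AngII+2W and to 4636 and 295 CPM at AngII+3W. Smooth muscle markers (Acta2, Cnn1, Lmod1, Myh11, Myl9, Smtn and Tagln) were all detected in every library. Their sum was 9784 and 7715 CPM in the CTRL libraries, 1801 and 2248 under AngII, 4107 and 3715 at AngII+2W and 1778 and 3432 at AngII+3W. A member's difference of AngII+3W from CTRL is therefore also given without its replicate 1 where that ended a call, turned a sign or moved the value by over 0.4 on the log2 scale.

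Sost encodes sclerostin, best known as the osteocyte inhibitor of bone formation, and it was the most abundant of the 10 per length of transcript in CTRL. It is a single-transcript gene at chr11:101962458-101967015 on GRCm38, with 2066 exonic bases. Sost measured 276 and 244 CPM in the CTRL libraries, 44.5 and 45.2 under AngII, 108 and 93.3 at AngII+2W and 21.5 and 53.9 at AngII+3W, from 401 to 5661 counts a library. Both CTRL libraries lay above all 6 libraries of treated mice, both AngII+2W libraries lay between CTRL and the rest, and AngII lay within the range of AngII+3W.

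Against CTRL, the fitted log2 difference of Sost was −2.53 ± 0.37 (SE) in AngII, a level 5.79-fold lower. It was −1.37 ± 0.36 in AngII+2W, which did not pass the threshold (FDR 0.291, edgeR quasi-likelihood test). In AngII+3W it was −2.78 ± 0.37, 6.89-fold lower, with an FDR of 0.0455. Without AngII+3W replicate 1 the last value was −2.28 with an FDR of 0.0409. The FDR was 0.0663 to 0.210 with any one CTRL, AngII or AngII+2W library left out, 0.0611 when library totals alone scaled the counts and 0.254 when only the 2 groups compared were fitted. These contrasts share the CTRL libraries with AngII against CTRL and are not independent of it.

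The levels of Sost therefore ran in the order CTRL, AngII+2W, AngII and AngII+3W, of which the last pair overlapped. From AngII to AngII+2W the log2 difference was 1.16 ± 0.36, and from AngII to AngII+3W it was −0.25 ± 0.36. Between the 2 groups taken after the infusion, which hold no library of AngII or CTRL, Sost was −1.42 ± 0.36 in AngII+3W against AngII+2W with non-overlapping libraries. That difference did not pass (FDR 0.391), and without AngII+3W replicate 1 it was −0.90.

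Sost moved beside the contractile genes of smooth muscle. The 5 genes whose log2 CPM most resembled it over the 8 libraries, among 4651 candidates, were Npr1 (Pearson r 0.992), Myl9 (0.989), Tagln (0.988), Acta2 (0.982) and Cnn1 (0.982). Npr1 encodes the receptor for atrial natriuretic peptide and the others are parts of the smooth muscle contractile apparatus. The points share library, depth and RNA pool, so these are descriptions. All 7 smooth muscle markers lay below CTRL in each treated group. At the end of the infusion 6 of the 7 passed, beside 5.10% of all genes. The AngII+2W comparison had 0 passing, beside 0% of all genes, with a median log2 difference of −1.08. All 7 had an unadjusted p below 0.05 there by edgeR, beside 10.7% of all genes. For AngII+3W, 4 of the 7 passed, beside 0.285% of all genes. Per 1000 CPM of the summed markers, Sost measured 28.2 and 31.6 CPM in the CTRL libraries, 24.7 and 20.1 under AngII, 26.3 and 25.1 at AngII+2W and 12.1 and 15.7 at AngII+3W. On this ratio the AngII+3W libraries were the lowest, and the other 3 groups lay within 20.1 to 31.6 CPM. The markers themselves parted in AngII+3W, with log2 differences from CTRL of −2.56 for Acta2, −2.25 for Myl9, −1.54 for Myh11 and −0.43 for Smtn. A ratio to their sum therefore depends on the markers that enter it. In bulk tissue, fewer smooth muscle cells and less RNA per cell cannot be told apart. Bone cell markers (Bglap, Dmp1, Ibsp, Mepe and Phex) summed to 4.26 to 9.89 CPM, with Mepe at 0 in all 8 libraries. Most of the sum was Phex, at 8.96 and 5.03 CPM in CTRL and 3.72 and 2.27 CPM in AngII. Dmp1 and Ibsp were higher in AngII than in CTRL. The log2 CPM of Sost followed the sum of the tested bone markers (Dmp1, Ibsp and Phex) with a Pearson r of 0.76. With the smooth muscle sum it was 0.96. The part of bone cells in the level of Sost was not tested.

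**Figure D1:**
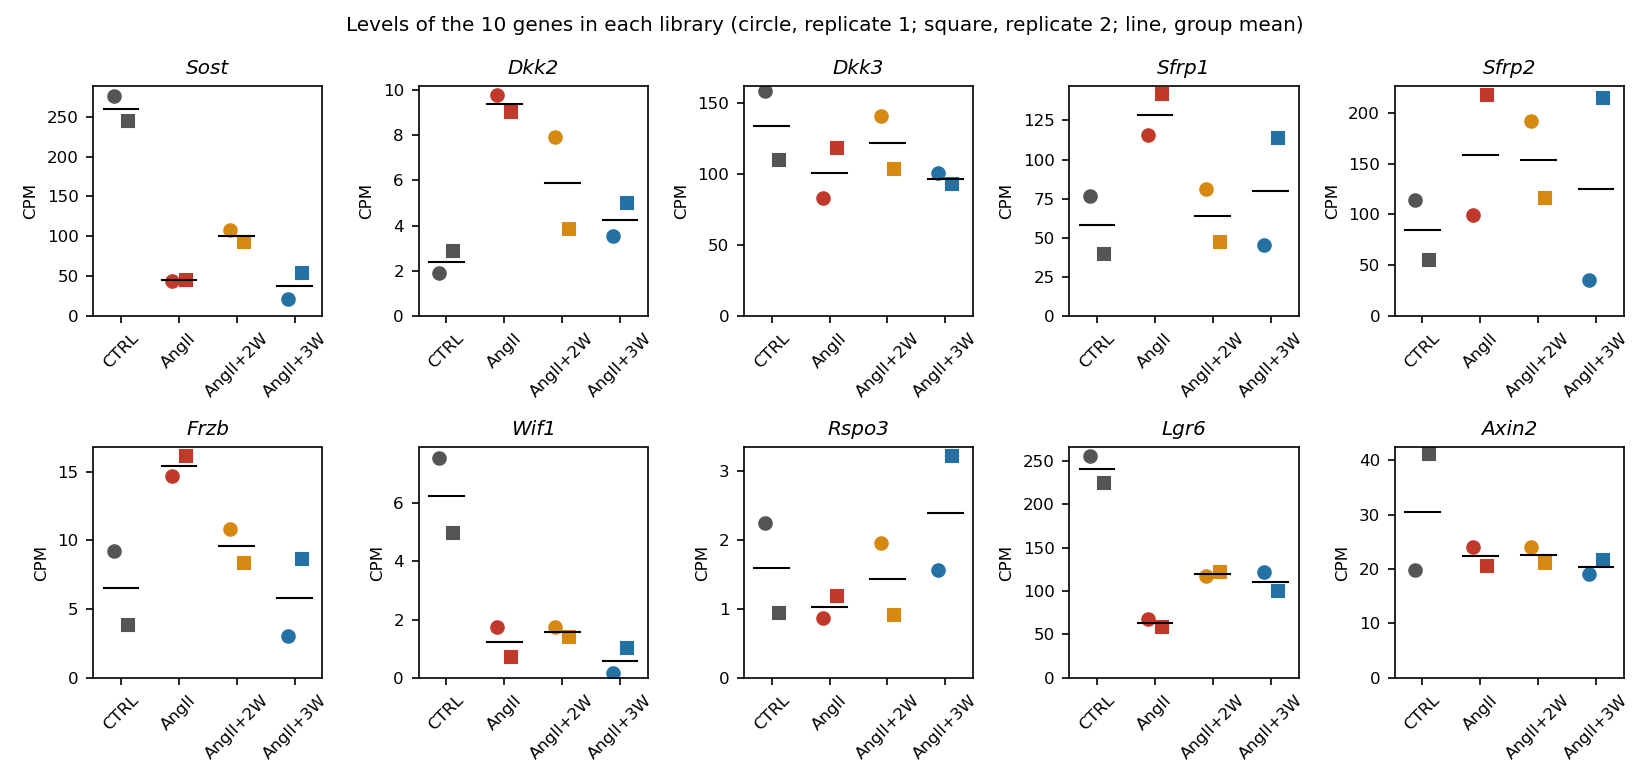
CPM (linear axes from 0) of each of the 10 genes by group, with circles for replicate 1, squares for replicate 2 and a line at the mean of the 2 libraries. Sost, Lgr6 and Wif1 are highest in both CTRL libraries, whereas Dkk2 and Frzb are highest in both AngII libraries.

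Dkk2, a Dickkopf protein that acts through Lrp5 and Lrp6, was the member that stood higher in every library of treated mice than in CTRL. It measured 1.90 and 2.87 CPM in the CTRL libraries, 9.77 and 8.998 under AngII, 7.93 and 3.86 at AngII+2W and 3.54 and 4.99 at AngII+3W, from 39 to 190 counts. The AngII libraries were the highest, and those of AngII+2W and AngII+3W overlapped. The log2 difference from CTRL was 1.97 ± 0.38 in AngII, 1.31 ± 0.38 in AngII+2W (FDR 0.304) and 0.84 ± 0.39 in AngII+3W (FDR 0.428). Relative to AngII, AngII+2W stood at −0.66 ± 0.36 and AngII+3W at −1.13 ± 0.37. The gene lies at chr3:132085292-132180304 on the forward strand.

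Dkk3 shares the Dickkopf fold but does not act on Lrp5 and Lrp6 as Dkk2 does, and it had overlapping libraries in most groups. It measured 158 and 110 CPM in the CTRL libraries, 83.2 and 119 under AngII, 141 and 104 at AngII+2W and 100.9 and 93.0 at AngII+3W. The CTRL libraries overlapped those of AngII and AngII+2W. Its log2 differences from CTRL were −0.41 ± 0.25, −0.13 ± 0.25 (FDR 0.901) and −0.47 ± 0.25 (FDR 0.488) in the order AngII, AngII+2W and AngII+3W.

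Among the Wnt-binding inhibitors, Wif1 lay low in all treated groups, whereas Sfrp1, Sfrp2 and Frzb had their highest group means in AngII. Wif1 measured 7.55 and 4.98 CPM in the CTRL libraries, 1.73 and 0.71 under AngII, 1.73 and 1.40 at AngII+2W and 0.16 and 1.02 at AngII+3W. These rest on 155 and 106 counts in CTRL but on 3 and 19 in AngII+3W, whose replicate 1 sat at the floor. Every treated library lay below both CTRL libraries.

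The log2 difference of Wif1 from CTRL was −2.37 ± 0.63 in AngII, −1.997 ± 0.61 in AngII+2W (FDR 0.312) and −3.39 ± 0.68 in AngII+3W (FDR 0.0948). Neither tested difference passed, and without AngII+3W replicate 1 the last was −2.62 (FDR 0.134), while DESeq2 gave it an adjusted p of 9.82e-05. Over the 8 libraries the log2 CPM of Wif1 resembled that of Sost with a Pearson r of 0.94, and per 1000 CPM of smooth muscle markers it ran from 0.646 to 0.771 CPM in CTRL, 0.316 to 0.959 under AngII, 0.376 to 0.420 at AngII+2W and 0.0905 to 0.297 at AngII+3W.

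Sfrp1, a Frizzled-related protein that sequesters Wnt, measured 76.9 and 39.6 CPM in the CTRL libraries, 116 and 142 under AngII, 80.9 and 47.2 at AngII+2W and 45.3 and 114 at AngII+3W. Its AngII libraries were above every other one, and the remaining 3 groups overlapped. The log2 difference was 1.14 ± 0.48 in AngII, 0.14 ± 0.47 in AngII+2W (FDR 0.951) and 0.45 ± 0.47 in AngII+3W (FDR 0.740), the last of which was 0.96 (FDR 0.443) without AngII+3W replicate 1.

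Frzb, also called Sfrp3 and known from cartilage, followed a like course at lower counts. It measured 9.20 and 3.81 CPM in the CTRL libraries, 14.7 and 16.1 under AngII, 10.8 and 8.37 at AngII+2W and 3.01 and 8.64 at AngII+3W. Its log2 difference from CTRL was 1.24 ± 0.51 in AngII, 0.56 ± 0.51 in AngII+2W (FDR 0.765) and −0.16 ± 0.52 in AngII+3W (FDR 0.931). Without AngII+3W replicate 1 the last value turned to 0.41 (FDR 0.816). Chondrocyte markers (Acan, Col2a1, Comp, Matn3 and Sox9) summed to 134 and 168 CPM in AngII against 41.0 and 26.6 CPM in CTRL. Most of the AngII sums was Comp (100.3 and 130.8 CPM) and Acan (28.2 and 30.3 CPM). Col2a1 stood at 0.11 and 0.33 CPM in AngII against 0.34 and 0.05 CPM in CTRL, too few counts to be tested. Matn3 was at 0 in both CTRL libraries and in AngII+3W replicate 1.

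Sfrp2, a further member of this family, had replicates far apart in most groups. It measured 114 and 55.2 CPM in the CTRL libraries, 99.8 and 217 under AngII, 192 and 116 at AngII+2W and 35.8 and 214 at AngII+3W. The log2 difference from CTRL was 0.90 ± 0.77 in AngII, 0.86 ± 0.77 in AngII+2W (FDR 0.758) and 0.56 ± 0.76 in AngII+3W (FDR 0.808). Leaving out AngII+3W replicate 1 moved the last to 1.33 (FDR 0.402). A stretch of 232 exonic bases of Sfrp2 matched the opposite-strand gene Gm26771 at 99.1% identity, so reads there could be split between them.

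Of the members, Frzb, Sfrp1, Sfrp2 and Dkk2 moved beside several marker lists that were high in AngII, among them fibroblast markers (Col1a1, Dcn, Dpt, Lum, Pdgfra and Pi16), all of which were detected in every library. The marker sum was 2139 and 1291 CPM in the CTRL libraries, 7993 and 12933 under AngII, 4170 and 2777 at AngII+2W and 1135 and 3020 at AngII+3W. All 6 markers lay above CTRL in AngII, where 2 passed beside 5.10% of all genes, and 0 passed in either later group. Col1a1 made up 6635 and 11171 CPM of the AngII sums and stood 8.15-fold above CTRL there. Pdgfra and Pi16 stood 1.73-fold above CTRL (FDR 0.298 and 0.42). Over the 8 libraries the log2 CPM of Frzb followed the sum with a Pearson r of 0.92, Sfrp1 with 0.85, Dkk2 with 0.83 and Sfrp2 with 0.71, whereas Lgr6 gave −0.80 and Wif1 −0.09. The sum of the tested chondrocyte markers (Acan, Comp and Sox9) gave higher values for the same 4 genes (Frzb 0.944, Sfrp1 0.862, Dkk2 0.850 and Sfrp2 0.789). The macrophage sum gave 0.911, 0.893, 0.787 and 0.680. The part of these marker lists in the levels of the members was not tested.

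**Figure D2:**
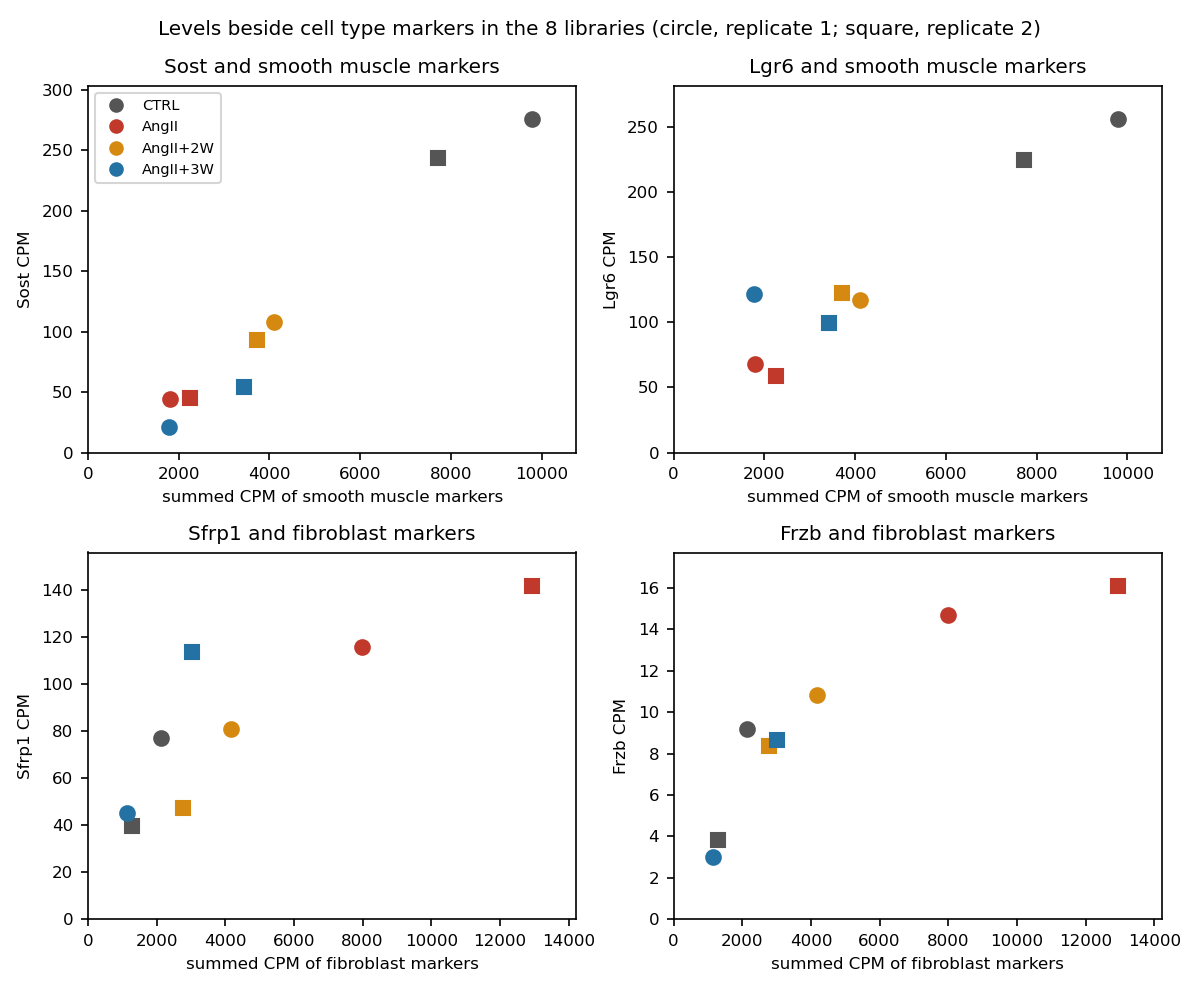
CPM of Sost and Lgr6 against the summed CPM of 7 smooth muscle markers, and CPM of Sfrp1 and Frzb against the summed CPM of 6 fibroblast markers, with 1 point a library, coloured by group. Sost rises with the smooth muscle sum, while in the Lgr6 panel AngII+3W replicate 1 lies above the AngII libraries at a like marker sum (122 CPM against 68.1 and 58.8 CPM).

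Lgr6, one of the receptors through which R-spondins act, had the smallest SE of the 10 members, at 0.15 to 0.16 on the log2 scale. The gene lies at chr1:134983301-135105276 on the reverse strand, with 6851 exonic bases over 3 transcripts. It measured 256 and 225 CPM in the CTRL libraries, 68.1 and 58.8 under AngII, 117 and 122 at AngII+2W and 122 and 99.7 at AngII+3W, from 1241 to 5248 counts. Both CTRL libraries were highest, both AngII libraries lowest, and the later groups overlapped each other in between.

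The log2 difference of Lgr6 from CTRL was −1.92 ± 0.16 in AngII, a level 3.78-fold lower. It was −1.01 ± 0.15 in AngII+2W, 2.01-fold lower, without passing (FDR 0.174). In AngII+3W it was −1.12 ± 0.15, 2.17-fold lower, with an FDR of 0.0455, which became 0.0885 without AngII+3W replicate 1. Leaving out CTRL replicate 1 gave 0.210 and leaving out any one AngII or AngII+2W library 0.0952 to 0.118, whereas the call held without CTRL replicate 2 (0.043) or AngII+3W replicate 2 (0.0401). It was 0.0503 with library totals alone and 0.293 with only the 2 groups compared. Against AngII, Lgr6 was 0.91 ± 0.15 higher on the log2 scale in AngII+2W and 0.80 ± 0.15 higher in AngII+3W. AngII+3W differed from AngII+2W by −0.11 ± 0.15 (FDR 0.880).

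Genes most like Lgr6 over the 8 libraries were Filip1 (Pearson r 0.976), Gm13312 (0.975), Chmp4c (0.966), Csdc2 (0.965) and Pgm5 (0.964), and none of them was among those most like Sost. Sost and Lgr6 themselves gave a Pearson r of 0.77. Per 1000 CPM of smooth muscle markers, Lgr6 measured 26.1 and 29.1 CPM in the CTRL libraries, 37.8 and 26.1 under AngII, 28.5 and 32.9 at AngII+2W and 68.4 and 29.0 at AngII+3W. Replicate 1 of AngII+3W, the library with the skeletal muscle markers, gave the highest ratio, and the other 7 lay within 26.1 to 37.8 CPM.

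Rspo3, a secreted ligand for the Lgr receptors, was scarce. It measured 2.24 and 0.94 CPM in the CTRL libraries, 0.86 and 1.18 under AngII, 1.96 and 0.91 at AngII+2W and 1.56 and 3.22 at AngII+3W, from 16 to 60 counts. All treated groups overlapped CTRL, and the log2 values against CTRL were −0.62 ± 0.59, −0.13 ± 0.58 (FDR 0.962) and 0.59 ± 0.56 (FDR 0.710), the last being 1.01 (FDR 0.625) without AngII+3W replicate 1. The opposite-strand gene Gm48159 matched 406 bases of its exons at 100% identity.

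Axin2, the feedback target of beta-catenin, measured 19.8 and 41.3 CPM in the CTRL libraries, 24.1 and 20.6 under AngII, 24.1 and 21.0 at AngII+2W and 19.2 and 21.8 at AngII+3W. One library, CTRL replicate 2, was high, and the other 7 lay within 19.2 to 24.1 CPM. The log2 differences from CTRL were −0.45 ± 0.31, −0.43 ± 0.30 (FDR 0.679) and −0.58 ± 0.31 (FDR 0.491), and without CTRL replicate 2 they turned to 0.17, 0.19 and 0.039. The opposite-strand gene Gm11670 matched 105 bases of its exons at 100% identity.

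**Figure D3:**
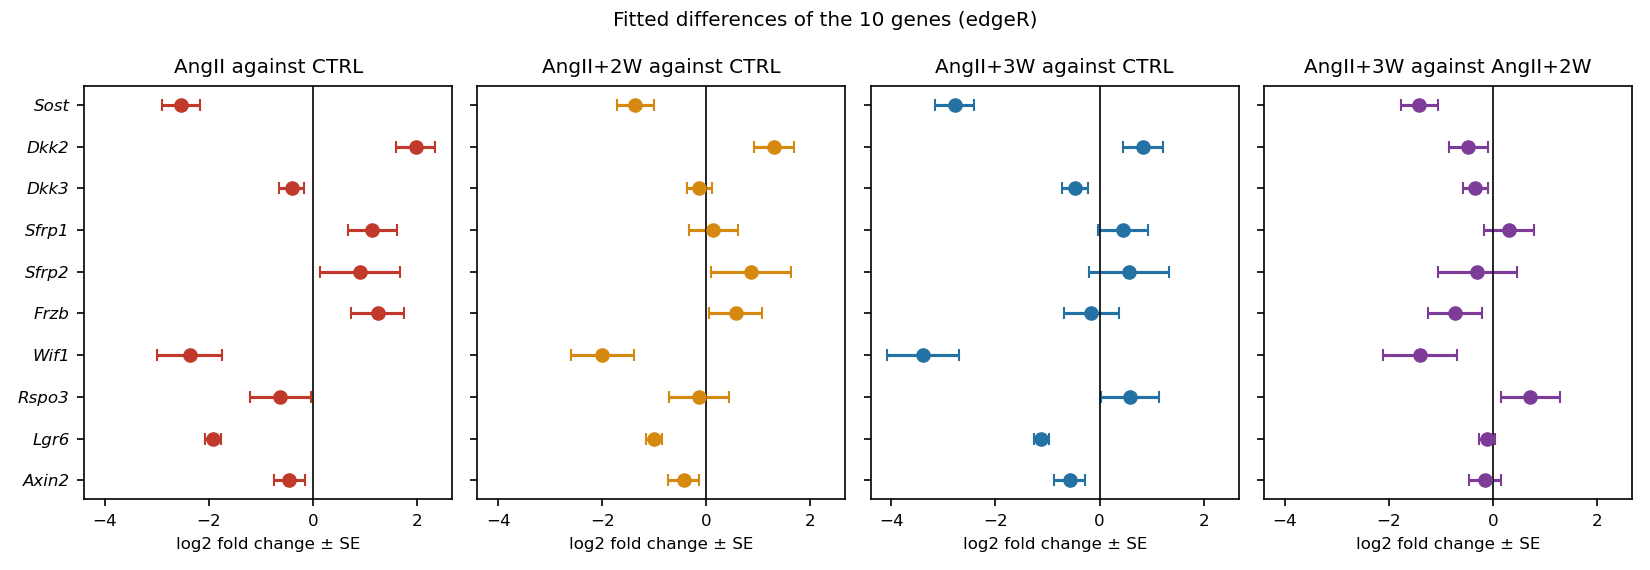
Fitted log2 fold change (points) with its SE (bars) for each of the 10 genes in 4 comparisons. The points of Sost, Wif1, Lgr6, Dkk3 and Axin2 lie below 0 in each comparison with CTRL, and those of Dkk2, Sfrp1 and Sfrp2 above it. The bars of Sfrp2 reach the widest, at 0.76 to 0.77.

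Per kilobase of exon (all transcripts of a gene merged), Sost was the highest of the 10 in CTRL at 125.8 ± 10.9 CPM (SD, n = 2), ahead of Dkk3 at 39.95 ± 10.2, Sfrp2 at 39.4 ± 19.4 and Lgr6 at 35.0 ± 3.20, which did not differ beyond their spread. In AngII the highest was Sfrp2 at 73.6 ± 38.5 CPM per kilobase, then Dkk3 at 30.1 ± 7.48, Sfrp1 at 29.4 ± 4.24 and Sost at 21.7 ± 0.241. In AngII+2W Sfrp2 stood at 71.4 ± 24.9 and Sost at 48.7 ± 5.03, and in AngII+3W at 58.1 ± 58.7 and 18.3 ± 11.1. At the low end, Rspo3 and Dkk2 stood at 0.515 ± 0.297 and 0.643 ± 0.185 CPM per kilobase in CTRL. The most abundant inhibitor RNA per length was thus that of Sost in CTRL and of Sfrp2 by mean in each treated group. The spread between the 2 Sfrp2 libraries was wide, and in AngII+3W it overlapped other members.

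Counted together, 3 of 10 members (Sost and Lgr6 lower, Dkk2 higher) had an FDR below 0.05 in AngII against CTRL, where 5.10% of all tested genes did, and 6 had an unadjusted p below 0.05 against 20.2% of all. The contrast of AngII against CTRL was used in the choice, and the later contrasts with CTRL share its CTRL libraries. The members were chosen with results of these libraries known, so no count in this paragraph is read as a result about them. In AngII+2W against CTRL, 0 of 10 members were called by edgeR, as were 0% of all genes, and 4 had an unadjusted p below 0.05 against 10.7%. DESeq2 and the likelihood ratio test each called 2 there, Sost and Lgr6, beside 373 and 420 of all 17182 genes. In AngII+3W against CTRL, 2 of 10 were called (Sost and Lgr6, both lower) against 0.285% of all genes, and 3 had an unadjusted p below 0.05 against 12.5%. In AngII+3W against AngII+2W, 0 of 10 were called against 0% of all genes, and 1 (Sost) had an unadjusted p below 0.05 against 8.83%. DESeq2 called 1 of the 10 there, and 221 of all genes. The median log2 difference of the 10 was −0.43, −0.13, −0.31 and −0.32 in these comparisons, beside −0.0085, −0.00011, 0.028 and 0.013 over all genes.

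The rest of the Wnt pathway was read from a list of 81 other genes set by function, of which 67 were tested. In AngII against CTRL 7 rose and 2 fell, again beside 5.10% of all genes, and the median was −0.06. With any one CTRL or AngII library left out, 0 or 1 of the list passed there, and without 1 of the AngII+2W libraries 3 or 4 did. By edgeR 0 passed in AngII+2W, in AngII+3W and between them, beside 0%, 0.285% and 0% of all genes. In those comparisons 7, 13 and 6 genes had an unadjusted p below 0.05, beside 10.7%, 12.5% and 8.83% of all. DESeq2 called 0, 3 and 1 genes of the list there, and 373, 585 and 221 of all 17182 genes. The likelihood ratio test called 1, 3 and 1 of the list, and 420, 556 and 273 of all genes.

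Of 10 tested Wnt ligands, Wnt2 rose 6.09-fold in AngII (log2 2.61 ± 0.43, FDR 0.0199), from 1.41 and 0.75 CPM in CTRL to 6.53 and 6.68 CPM. The most abundant ligand, Wnt5a, which mostly acts without beta-catenin, had a log2 difference of 0.29 ± 0.18 (FDR 0.422). Its receptor Ror2 rose 4.30-fold (log2 2.10 ± 0.35, FDR 0.0208), from 2.24 and 1.65 CPM to 7.72 and 8.998 CPM. Among 16 tested receptors Fzd7, a Frizzled, fell by 0.66 ± 0.12 on the log2 scale (FDR 0.0286), from 62.0 and 60.1 CPM to 40.7 and 36.4 CPM. The co-receptor Lrp6, on which Sost and Dkk2 act, had a log2 difference of 0.21 ± 0.13 (FDR 0.433).

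Lgr5 and Rspo2, relatives of Lgr6 and Rspo3, rose in AngII. Lgr5 did so by a log2 difference of 2.49 ± 0.55 (FDR 0.0446), from 1.12 and 0.99 CPM in CTRL to 9.23 and 2.70 CPM in AngII, and without AngII replicate 1 its value was 1.35 (FDR 0.113). Rspo2, a further R-spondin, rose by 2.41 ± 0.48 (FDR 0.0357), from 0.58 and 0.24 CPM to 2.16 and 2.23 CPM. Lgr4, the most abundant gene of this role, had a log2 difference of −0.13 ± 0.15 (FDR 0.703). Of 6 tested genes of the R-spondin arm, these 2 passed, beside 5.10% of all genes. Whether their changes differ from that of Lgr6 was not tested.

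Sfrp4 was the one of 9 other tested extracellular inhibitors that passed, rising 6.08-fold (log2 2.60 ± 0.42, FDR 0.0186) from 29.0 and 18.6 CPM to 97.7 and 191 CPM. Inside the cell, 0 of 18 transduction genes passed, beside 5.10% of all genes. Ctnnb1, which encodes beta-catenin, had a log2 difference of −0.06 ± 0.12 (FDR 0.845). Neither of the 2 secretion genes passed, with Wls, the Wnt carrier, at 0.13 ± 0.17 (FDR 0.731). Of 6 tested targets beside Axin2, Ccn4 (Wisp1) rose 7.87-fold (log2 2.98 ± 0.47, FDR 0.0183) and Ccnd1, cyclin D1, rose 1.95-fold (log2 0.97 ± 0.17, FDR 0.0227). Nkd1, a feedback inhibitor like Axin2, fell by 1.33 ± 0.27 on the log2 scale (FDR 0.0375), from 32.8 and 31.7 CPM to 12.2 and 13.5 CPM. The targets thus passed in both directions. Every count by role in AngII stands beside 5.10% of all genes, and none is read as a result about its role.

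By edgeR's quasi-likelihood test, 0 of these 9 genes passed against CTRL after the infusion, though several values stayed away from 0. In AngII+2W, Rspo2 was 2.02 ± 0.49 above CTRL on the log2 scale (FDR 0.266, unadjusted p 0.00355), Sfrp4 1.02 ± 0.40 (FDR 0.418), Wnt2 0.81 ± 0.44 (FDR 0.574), Ror2 0.81 ± 0.36 (FDR 0.480), Ccn4 0.71 ± 0.47 (FDR 0.653) and Lgr5 0.68 ± 0.56 (FDR 0.742). Fzd7 stood at −0.50 ± 0.12 there (FDR 0.274), Nkd1 at −0.61 ± 0.27 (FDR 0.476) and Ccnd1 at −0.41 ± 0.17 (FDR 0.450). The likelihood ratio test called Rspo2 in that comparison (FDR 0.013), and DESeq2 did not (0.108).

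In AngII+3W, the log2 difference from CTRL was 0.78 ± 0.47 for Ccn4 (FDR 0.543), 0.31 ± 0.45 for Wnt2 (FDR 0.823), −0.19 ± 0.41 for Sfrp4 (FDR 0.887), 0.71 ± 0.36 for Ror2 (FDR 0.475), 0.92 ± 0.52 for Rspo2 (FDR 0.517), 1.01 ± 0.56 for Lgr5 (FDR 0.512) and −0.045 ± 0.17 for Ccnd1 (FDR 0.939). Nkd1 stood at −0.97 ± 0.27 (FDR 0.193) and Fzd7 at −0.67 ± 0.12 with the smallest FDR of the list (0.0793), from 37.9 and 39.0 CPM. DESeq2 called both (0.0295 and 0.00498), as did the likelihood ratio test (0.0462 and 0.00934), and the other gene that these tools called was Fzd5. Without AngII+3W replicate 1, Wnt2 stood at 0.79, Ror2 at 1.08, Sfrp4 at 0.19, Nkd1 at −0.58 and Ccnd1 at −0.18, and none of the 9 passed. Fibroblast and macrophage markers were also higher in AngII. All 5 macrophage markers lay above CTRL there and 3 passed, beside 5.10% of all genes, with sums of 364 and 490 CPM against 172 and 112 CPM. The part of both marker lists in the changes of these pathway genes was not tested.

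**Figure D4:**
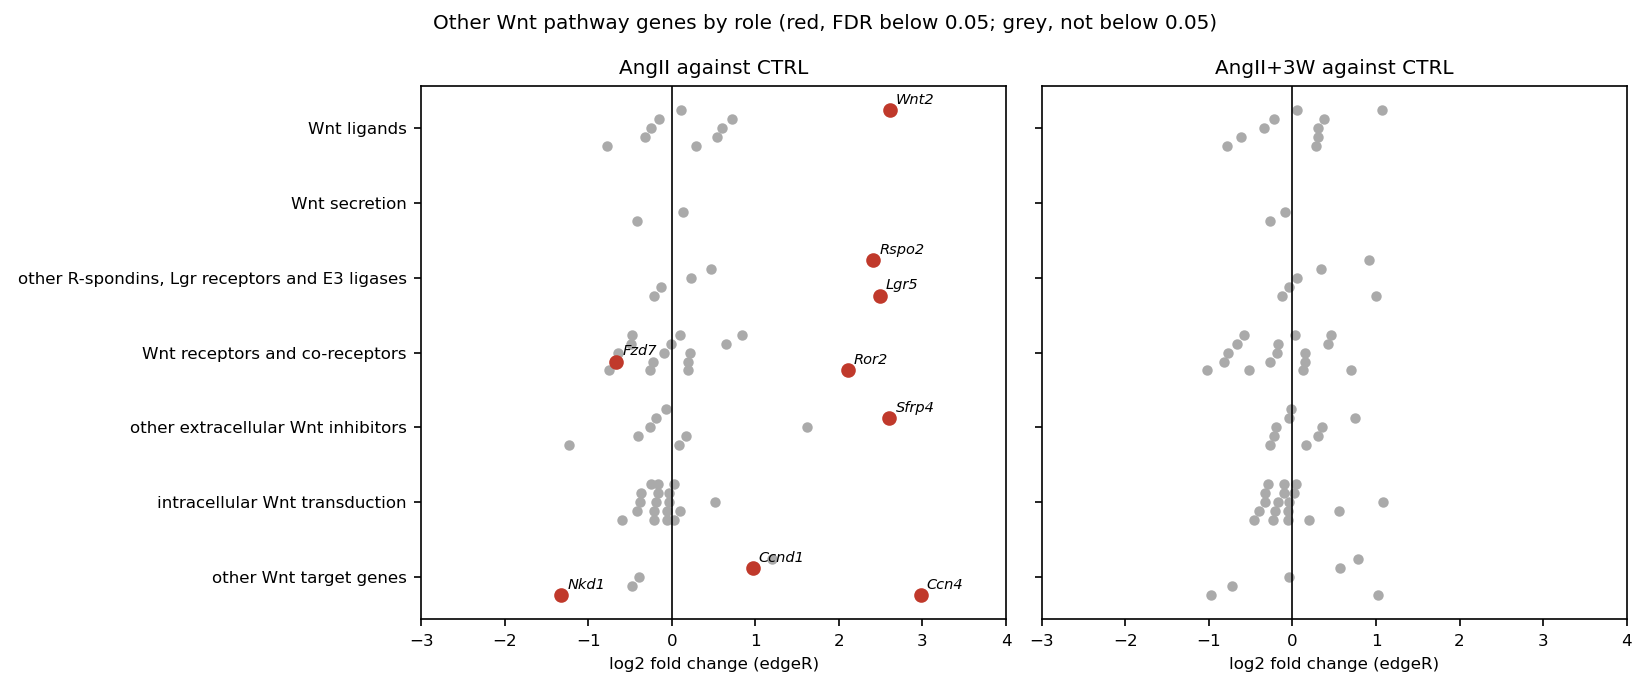
Log2 fold change of the 67 tested other Wnt pathway genes, grouped by role, in AngII and in AngII+3W against CTRL, with genes of FDR below 0.05 in red and named. In AngII 9 genes are named, 7 of them to the right of 0, and in AngII+3W none is.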

How the data were processed

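RNA was measured in 8 aortic libraries after rRNA depletion and paired-end sequencing. The authors quantified the reads with Salmon against mouse cDNA (GRCm38.p6) and deposited estimated counts per gene as whole numbers, without normalization. The estimates divide reads between similar transcripts. Counts were analysed here in edgeR 4.0.16 (R 4.3.3): filterByExpr, TMM scaling, glmQLFit and glmQLFTest, 1 model with a term for each of the 4 groups (4 residual degrees of freedom), and Benjamini-Hochberg adjustment over 17182 genes, with calls at an FDR below 0.05. The common biological coefficient of variation was 0.202. The SE was derived from the log2 difference and its F statistic. An exact permutation test of 2 against 2 libraries cannot go below p = 0.33, so none is given. Likeness used log2 CPM with a prior count of 2, for genes with a mean of at least 1 CPM and a log2 range of at least 1. Named genes were the members, pathway genes passing against CTRL (at most 20), the most abundant gene of each role, and the 5 genes most like Sost or Lgr6. Positions and exon lengths came from the GENCODE annotation of GRCm38 and exon matches from BLAST 2.17.0 (at least 95% identity over at least 100 bases). The fits were tested on simulated data, and DESeq2 1.42.0 was an alternative. The members and gene lists were chosen with earlier results of these data known. Libraries of a group hold different mice, and replicate numbers pair none of them. No library was dropped or imputed.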

Additional observations from a re-analysis of the deposited data

How the results depend on the processing

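With single libraries left out, the count of members called ran from 0 to 4 in AngII against CTRL (main 3; 0 without AngII replicate 2, 1 without AngII replicate 1 or CTRL replicate 1), 0 to 2 in AngII+2W (main 0; 2 without either AngII+3W library), 0 to 3 in AngII+3W (main 2; 0 without CTRL replicate 1 or any AngII or AngII+2W library, 1 without CTRL replicate 2 or AngII+3W replicate 1) and 0 to 1 between AngII+3W and AngII+2W (1 without AngII+3W replicate 2). For the other Wnt pathway genes the ranges were 0 to 13 in AngII (main 9; 0 or 1 without any one CTRL or AngII library, 3 or 4 without 1 of AngII+2W), 0 to 5 in AngII+3W and 0 to 4 between the later groups, the highest of both without AngII+3W replicate 2. A lone library left in a group was assumed to vary like the others. In AngII+3W against CTRL, library totals alone, a fit of only the 2 groups compared and a fit with the replicate block each called 0 members against 2. DESeq2 and the likelihood ratio test called 2 members in AngII+2W and 1 in AngII+3W against AngII+2W, each against 0, and 3 and 1 other pathway genes in AngII+3W against CTRL and against AngII+2W. The likelihood ratio test called 1 other pathway gene in AngII+2W. Over all genes DESeq2 called 373 in AngII+2W, 585 in AngII+3W and 221 between the later groups. The likelihood ratio test called 420, 556 and 273.

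The signs of the members turned only where a library was left out. Without single libraries the log2 difference from CTRL in AngII ran from −1.13 to 0.13 for Rspo3 and −0.89 to 0.17 for Axin2, and for the pathway genes Wls and Lgr4, added after seeing the data, from −0.079 to 0.37 and −0.32 to 0.081. In AngII+2W it ran from −0.37 to 0.15 for Dkk3, −0.30 to 0.69 for Sfrp1, −0.79 to 0.62 for Rspo3 and −0.87 to 0.19 for Axin2. In AngII+3W it ran from −0.36 to 1.01 for Sfrp1, −1.24 to 1.33 for Sfrp2, −1.11 to 0.61 for Frzb, −0.027 to 1.34 for Rspo3 and −1.01 to 0.039 for Axin2. Between AngII+3W and AngII+2W it ran from −0.89 to 0.14 for Dkk2, −0.50 to 0.83 for Sfrp1, −2.10 to 0.48 for Sfrp2 and −0.27 to 0.026 for Lgr6. The cause was not tested. Replicate numbers mark different mice. Same-numbered libraries of 2 groups deviated together with correlations of −0.04 to 0.25 over genes, and the fit with the replicate block called 870 genes against 877 in AngII and 4 against 49 in AngII+3W.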

Other observations

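The ligand Wnt2b, named here after its values were seen, had the smallest FDR of the Wnt pathway list between the groups taken after the infusion. It measured 10.4 and 8.79 CPM in the CTRL libraries, 7.18 and 8.998 under AngII, 18.1 and 15.2 at AngII+2W and 6.92 and 5.58 at AngII+3W. The AngII+2W libraries were above all others, and the log2 difference of AngII+3W against AngII+2W was −1.42 ± 0.21 without passing in edgeR (FDR 0.146), while DESeq2 gave an adjusted p of 0.000113.

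Genes most like the other members over the 8 libraries were also looked at after the values were seen. The 5 most like Frzb were Fmod, Tspan11, Acan, Bace2 and Pi16 (Pearson r 0.993 to 0.974). For Sfrp1 they were Lpar1, Adamts5, Dpt, Skp2 and Fgf7 (0.965 to 0.959). For Sfrp2 they were Ece2, Smoc2, Gdf10, Fbln1 and Tgfbi (0.987 to 0.954). Npr1, which ranked first for Sost, was also among the 5 most like Wif1 (0.967).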
